A study of Mus musculus with 6 samples.

Results

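MYC, the D cyclins, their kinases CDK4 and CDK6, and the CDK inhibitors form the control of the G1 phase of the cell cycle, and 10 of these genes were followed in DP42, a myeloma cell line of the mouse. They were Myc, Ccnd1, Ccnd2, Ccnd3, Cdk4, Cdk6, Cdkn1a, Cdkn1b, Cdkn2a and Cdkn2c, taken by symbol from the platform annotation, and all 10 were among the 22180 genes analysed. Total RNA was measured on Affymetrix arrays after 24 h in 3 groups of 2 arrays: DP42 cells cultured alone, DP42 cells cultured with mouse B cells, which the design text calls the control, and DP42 cells cultured with mouse neutrophils, labelled "neutrophils (IMC)". Co-cultured cells were separated by flow sorting before RNA was extracted, and all 6 arrays carry DP42 as the cell type, although the source name of the co-culture arrays gives the partner cell. Going by its title, the series asks how neutrophils of the bone marrow, through DNA that they release, act on multiple myeloma. The origin of the line's Myc alleles and the source of the partner cells are not given in the sources used here. The labels do not state that replicate arrays are independent cultures. The p-values below therefore rest on the spread among the 6 arrays alone, which may be technical.

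As background, D cyclins are short-lived subunits made in response to growth signals. They activate CDK4 and CDK6, which phosphorylate the retinoblastoma protein and so release E2F factors that switch on S-phase genes. MYC dimerises with MAX, binds the E-box CACGTG and drives growth and ribosome genes. Inhibitors of the INK4 family (Cdkn2a, Cdkn2c) bind CDK4 and CDK6, while those of the CIP/KIP family (Cdkn1a, Cdkn1b) bind cyclin-CDK complexes. In human multiple myeloma, raised expression of a D cyclin is near universal, and rearrangement of MYC and loss of CDKN2C are recurrent lesions.

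Promoter windows from RefSeq (GRCm38.p6) were at hand for 7 of the 10 genes, in 11 windows of 250 bases before a transcript start. Cdk4 is shown because it was bright on every array and is known in human and rodent cells as a direct target of MYC. Its window, at chr10:127063285-127063534 on the plus strand, held 4 copies of CACGTG (in capitals), which reads the same on both strands. The copies began 172, 118, 98 and 11 bases before the start. At least 1 copy stood in 6.02% of 32851 such windows and at least 3 copies in 0.0609%. The window of Cdk6 held 1 copy, and those of Cdkn1a, Cdkn1b, Cdkn2a, Cdkn2c and Ccnd3 held 0. Cdkn2a is shown because it was the single member that stood lower with neutrophils in the values as deposited. It also has a pair of starts that give different proteins but a single probe set, and the positions of its probes were not at hand. The upstream start, preceded by chr4:89294620-89294869 (minus strand), lies at the gene's 5′ end and belongs to the transcript of p19Arf, which stabilises p53. The downstream start, preceded by chr4:89282193-89282442 (minus strand), lies inside the gene and belongs to the transcript of p16Ink4a, the CDK4 and CDK6 inhibitor. Neither Cdkn2a window has capitals, since neither held CACGTG, and the array values cannot be divided between their transcripts.
Cdk4: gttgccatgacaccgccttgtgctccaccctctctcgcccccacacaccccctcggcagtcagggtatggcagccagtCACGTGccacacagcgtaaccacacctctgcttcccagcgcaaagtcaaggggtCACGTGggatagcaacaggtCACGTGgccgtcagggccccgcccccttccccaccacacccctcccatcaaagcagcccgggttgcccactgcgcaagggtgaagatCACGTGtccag
Cdkn2a upstream start: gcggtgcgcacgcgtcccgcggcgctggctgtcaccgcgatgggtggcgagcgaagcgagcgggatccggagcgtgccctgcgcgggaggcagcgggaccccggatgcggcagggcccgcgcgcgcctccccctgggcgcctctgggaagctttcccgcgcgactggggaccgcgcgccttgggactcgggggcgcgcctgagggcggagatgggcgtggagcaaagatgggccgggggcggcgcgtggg
Cdkn2a downstream start: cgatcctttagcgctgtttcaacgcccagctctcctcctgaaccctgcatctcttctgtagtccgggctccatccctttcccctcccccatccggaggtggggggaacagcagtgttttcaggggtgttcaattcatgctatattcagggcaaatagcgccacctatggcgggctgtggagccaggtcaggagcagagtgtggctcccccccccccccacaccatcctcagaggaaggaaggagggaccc

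Values are log2 expression after RMA, a method that subtracts background, normalises between arrays and summarises each probe set. Array medians over genes were 7.27 to 7.38, lower quartiles 6.20 to 6.41 and upper quartiles 8.87 to 9.13. Probe sets differ in how strongly they bind, so levels are set against the array's quartiles and no gene is ranked against another. Genes with a mean at or above 7.30, the median over genes, are called brighter genes below, and 9 of the 10 members were among these 11090. Brighter genes as a whole stood higher with neutrophils, with a median log2 difference of 0.13 against B cells and 0.11 against culture alone, while the medians over all genes were 0.01 and 0.02. The B-cell arrays differed from each other on this point, with brighter-gene medians of 9.03 in replicate 1 and 8.87 in replicate 2, beside 8.98 and 8.98 alone and 9.10 and 9.13 with neutrophils. Across genes, B-cell replicate 1 correlated at 0.996 with neutrophil replicate 1 and at 0.992 with its own replicate. For 20 neutrophil markers, array means were 6.75 and 6.82 alone, 6.80 and 6.89 in the B-cell co-culture and 7.17 and 7.18 in the neutrophil co-culture, and Ngp, a granule gene, stood at 5.57 and 5.76 alone, at 5.93 and 6.11 in the B-cell co-culture and at 7.27 and 7.70 in the neutrophil co-culture. Ngp was the 1 marker of these that passed as higher than with B cells (0.0316% of all genes did), and Ngp, Lcn2, S100a8, Retnlg and Elane passed as higher than in culture alone (0.131% of all genes did). With one array left out, the number of the 20 that passed changed in both comparisons, and none passed without alone replicate 1. The share of all genes that passed changed as well. Against B cells, both the marker count and that share were highest without B-cell replicate 1. Ltf, the lactoferrin gene, lay at 6.33 to 6.73 on all 6 arrays, and S100a9 at 7.14 to 7.62. Means of 13 B cell markers were 9.67 to 9.71 and of 10 plasma cell markers 8.75 to 8.84. Of the defining genes, Pax5 and Irf4 had group means of 10.95 to 11.03 and 10.74 to 10.92, Xbp1 and Sdc1 of 10.02 to 10.17 and 8.49 to 8.60, and Prdm1 of 6.74 to 6.96. Ms4a1, the CD20 gene, was dim on all arrays, at 6.04 to 6.52. Brighter genes made up 10 of the 13 B cell markers and 6 of the 10 plasma cell markers. Further markers were named after their values were seen. Of these, Mzb1, a plasma cell marker, was bright, with group means of 12.13 to 12.15. The B cell markers Cd79a and Cd79b were bright too, with group means of 12.15 to 12.26 and 12.46 to 12.56. Jchain, Tnfrsf17 and Cr2 were dim. Among plasma cell markers, Jchain had group means of 5.25 to 5.47 and Tnfrsf17, the BCMA gene, of 5.82 to 6.13, with a difference between neutrophils and B cells of -0.31 ± 0.11 (adjusted p = 0.208). Among B cell markers, Cr2, the complement receptor CD21 gene, had differences of -0.60 ± 0.13 from B cells and -0.61 ± 0.13 from culture alone (limma, adjusted p = 0.133 and 0.0612). Against B cells, Cr2 and Tnfrsf17 had the lowest differences of their lists. Most markers went the other way there, with 7 of 13 B cell markers and 8 of 10 plasma cell markers higher with neutrophils. The median difference was 0.06 in each list. The part of carried neutrophil RNA in the members' values was not tested. In sorted bulk cells a change in RNA per cell and a change in the mix of cells cannot be told apart.

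Myc was read by a bright probe set, and its values differed little between the 3 cultures. It stood at 10.93 and 10.79 in cells cultured alone, at 10.90 and 10.84 in the B-cell co-culture and at 10.87 and 10.96 in the neutrophil co-culture. The arrays of all groups overlapped, all 6 lay above the upper quartile, and the whole range was 0.17. The difference was 0.04 ± 0.10 (SE) between neutrophils and B cells and 0.06 ± 0.10 between neutrophils and culture alone (limma, adjusted p = 0.798 and 0.766). As folds, the 95% intervals were 0.881 to 1.20 and 0.889 to 1.21. The rank of the group means was alone, B cells, neutrophils, and no neighbouring pair was separated.

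None of the 3 D cyclins passed the test. Ccnd1, the cyclin D1 gene, stood at 10.68 and 10.76 alone, at 10.74 and 10.62 in the B-cell co-culture and at 10.76 and 10.92 in the neutrophil co-culture, above the upper quartile of every array. The neutrophil arrays lay above both other groups by a narrow margin, and the difference from B cells was 0.17 ± 0.10, or 1.12-fold (adjusted p = 0.348), and from culture alone 0.12 ± 0.10 (adjusted p = 0.526). Ccnd3, the cyclin D3 gene, known for its role in lymphoid cells, stood at 11.03 and 11.05 alone, at 11.09 and 11.00 in the B-cell co-culture and at 11.19 and 11.24 in the neutrophil co-culture. Both neutrophil arrays were higher than the other 4, while alone and B-cell arrays overlapped. The difference was 0.16 ± 0.09 against B cells and 0.17 ± 0.09 against culture alone (adjusted p = 0.318 and 0.361).

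Ccnd2, the cyclin D2 gene, was the member with a dim probe set. It stood at 5.68 and 5.61 alone, at 5.63 and 5.72 in the B-cell co-culture and at 5.56 and 5.84 in the neutrophil co-culture, below the lower quartile of every array, where RMA compresses differences and no detection call is at hand. The neutrophil arrays were the lowest and the highest of the 6, and the groups overlapped. The differences were 0.02 ± 0.11 against B cells and 0.05 ± 0.11 against culture alone (adjusted p = 0.923 and 0.818).

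Both kinases of the D cyclins had probe sets above the median of every array, and neither passed the test. Cdk4 stood at 12.52 and 12.50 alone, at 12.67 and 12.53 in the B-cell co-culture and at 12.60 and 12.64 in the neutrophil co-culture. Cells cultured alone were the lowest, without overlap with either co-culture, while the co-cultures overlapped. The margin from B cells was narrow, at 12.52 against 12.53. Of all genes, 13.5% lay higher without overlap with B cells than alone, and 35.6% with neutrophils than alone. The difference was 0.03 ± 0.10 between neutrophils and B cells, 0.11 ± 0.10 between neutrophils and culture alone, and 0.09 ± 0.10 between B cells and culture alone (adjusted p = 0.876, 0.532 and 1.00). Cdk6 stood at 8.44 and 8.52 alone, at 8.59 and 8.18 in the B-cell co-culture and at 8.58 and 8.69 in the neutrophil co-culture, between the median and the upper quartile of each array. B-cell replicate 2 was the low array, and B-cell replicate 1 lay between the neutrophil arrays. The difference of neutrophils from B cells was 0.25 ± 0.14 (adjusted p = 0.307), with a 95% interval of -0.06 to 0.56, and from culture alone 0.15 ± 0.14 (adjusted p = 0.545). With a covariate, the mean of the olfactory and vomeronasal receptor genes on each array, the differences were -0.19 and -0.43 (adjusted p = 1.00 and 0.871).

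Neither CIP/KIP inhibitor passed the test, and the values as deposited were highest with neutrophils, an arrangement shared by 42.4% of brighter genes. Cdkn1a, the p21 gene and a target of p53, stood at 10.80 and 10.93 alone, at 10.93 and 10.81 in the B-cell co-culture and at 10.98 and 10.99 in the neutrophil co-culture. The neutrophil arrays lay above the other 4 by less than the spread within either other group. The differences were 0.11 ± 0.10 against B cells and 0.12 ± 0.10 against culture alone (adjusted p = 0.483 and 0.514). The difference of Cdkn1a from B cells was -0.01 with quantile normalisation, -0.05 with arrays centred on brighter genes and -0.04 with the receptor covariate, and that from culture alone was -0.01 with this centring and -0.07 with the covariate. Cdkn1b, the p27 gene, which restrains cells from entering S phase, stood at 8.64 and 8.69 alone, at 8.86 and 8.43 in the B-cell co-culture and at 8.95 and 8.97 in the neutrophil co-culture. The B-cell arrays lay on either side of the alone arrays, with a group mean of 8.65 ± 0.30 (SD, n = 2), and both neutrophil arrays were above all others. The difference was 0.31 ± 0.14, or 1.24-fold, against B cells (unadjusted p = 0.0493, adjusted p = 0.248) and 0.30 ± 0.14 against culture alone (adjusted p = 0.303), both from limma. Against B cells it was 0.53 without B-cell replicate 1 (adjusted p = 0.0189) and 0.10 without B-cell replicate 2 (adjusted p = 0.729). With the receptor covariate, itself lowest on the neutrophil arrays, the differences of Cdkn1b were -0.13 from B cells and -0.28 from culture alone (adjusted p = 1.00 and 0.871).

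The probe sets of Cdkn2c and Cdkn2a pointed in opposite directions with neutrophils, and neither gene passed. That of Cdkn2a may also read the p19Arf transcript, which was not checked, so its direction cannot be assigned to the INK4 inhibitor. Cdkn2c, the p18 gene, known to be needed for the exit of plasma cells from the cycle in mice, stood at 9.22 and 9.21 alone, at 9.23 and 9.09 in the B-cell co-culture and at 9.45 and 9.47 in the neutrophil co-culture. The arrays of the neutrophil group were close to each other and lay above the other 4. The difference was 0.30 ± 0.09, or 1.23-fold with a 95% interval of 1.06 to 1.43, against B cells (unadjusted p = 0.0126, adjusted p = 0.182) and 0.25 ± 0.09, or 1.19-fold, against culture alone (adjusted p = 0.234), so it did not pass in limma's test over all genes.

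Cdkn2a, shown above with its pair of starts, stood at 7.70 and 7.69 alone, at 7.83 and 7.92 in the B-cell co-culture and at 7.59 and 7.50 in the neutrophil co-culture. The 3 groups were separate on every array, with neutrophils lowest and B cells highest, an arrangement found in 2.2% of all genes and 1.06% of brighter genes. This ordering was taken from the values of Cdkn2a itself, and other orderings were not counted. The shares are therefore a description only. The difference was -0.33 ± 0.09, a ratio of 0.795 with a 95% interval of 0.685 to 0.922, between neutrophils and B cells (unadjusted p = 0.00708, adjusted p = 0.165). It was -0.15 ± 0.09 between neutrophils and culture alone (adjusted p = 0.412) and 0.18 ± 0.09 between B cells and culture alone (adjusted p = 1.00). None passed in limma's test, but among the 10 members this was the lowest adjusted p of the neutrophil and B-cell comparison. Other inhibitors, named for their family after their values were seen, did not pass either. Cdkn2b, the p15 gene beside Cdkn2a, had group means of 8.09 alone, 8.15 with B cells and 8.18 with neutrophils, Cdkn2d, the p19Ink4d gene, of 7.91, 7.94 and 7.77, and Cdkn1c, the p57 gene, of 7.05, 6.99 and 7.22. Their differences between neutrophils and B cells were 0.02, -0.17 and 0.24, with adjusted p of 0.912, 0.320 and 0.307.

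**Figure D1:**
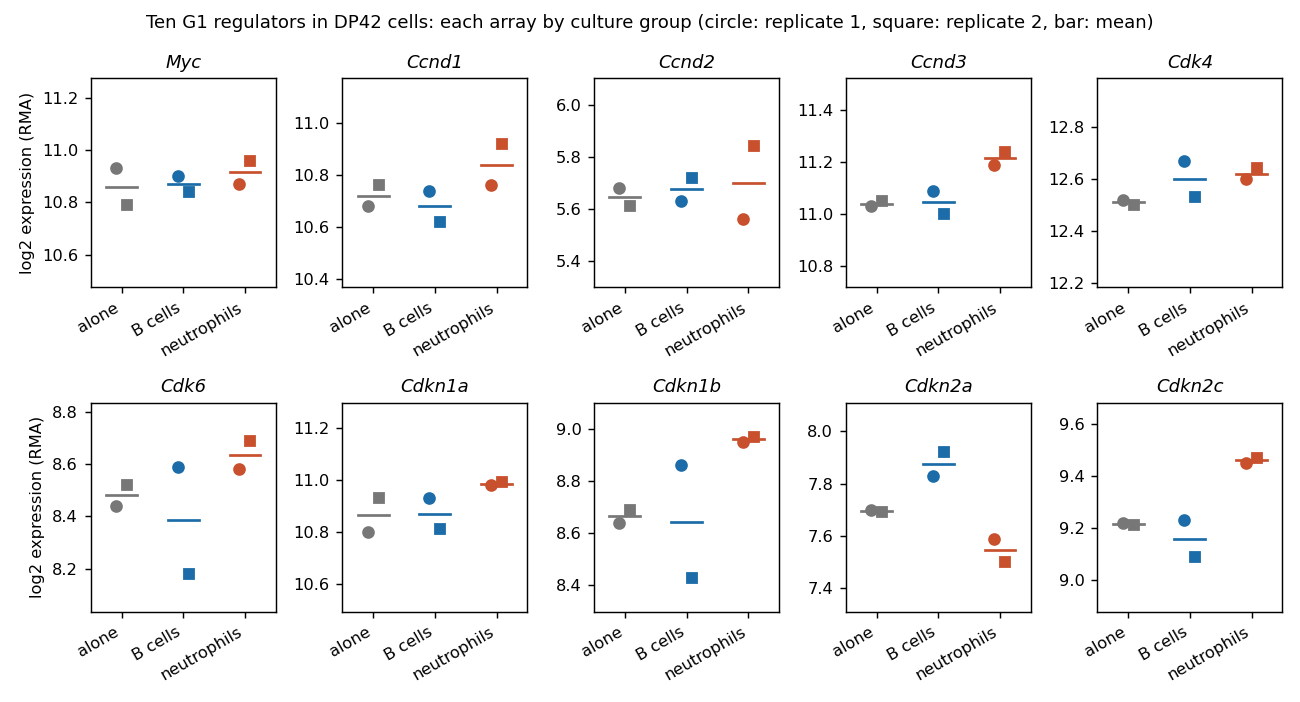
Log2 expression (RMA) of the 10 genes on each of the 6 arrays, by culture group; circles are replicate 1, squares replicate 2, bars group means, and every panel spans the same height on its own level. Neutrophil arrays sit above the other 4 for Ccnd1, Ccnd3, Cdkn1a, Cdkn1b and Cdkn2c and below them for Cdkn2a. The B-cell arrays are far apart for Cdk6 and Cdkn1b. Against B cells the sign turned or fell to 0 under another scaling for Ccnd3 and Cdkn1a. With the receptor covariate, itself lowest on the neutrophil arrays, it turned for Ccnd1, Cdkn1a and Cdkn1b.

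In limma's test with Benjamini-Hochberg adjustment over all 22180 genes, 0 of the 10 members passed an adjusted p of 0.05 in any comparison. Between neutrophils and B cells 0.0496% of all genes passed, between neutrophils and culture alone 1.49%, and between B cells and culture alone 0%. The F test across the 3 groups called 0 members and 0.189% of all genes, with 2 members (Cdkn2a and Cdkn2c) and 16% of all genes at an unadjusted p under 0.05, and its lowest member value was an unadjusted p of 0.0216 for Cdkn2a (adjusted p = 0.251). At an unadjusted p under 0.05, 3 members differed between neutrophils and B cells (Cdkn1b, Cdkn2a and Cdkn2c) against 20.1% of all genes, 1 between neutrophils and culture alone (Cdkn2c) against 17.7%, and 0 between B cells and culture alone against 3.92%. A share of 3 in 10 is near that background.

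The direction of most members was also the common one. In both neutrophil comparisons 9 of the 10 members stood higher with neutrophils, where 51.7% of all genes did so against B cells and 54.4% against culture alone, and among brighter genes 8 of 9 members did so beside 80.1% and 79.7%. Neutrophil arrays lay above B-cell arrays without overlap for 5 members (30% of all genes) and below for 1 (26.7%). Against culture alone the counts were 7 (35.6%) and 1 (27.4%), and B-cell arrays lay above those of culture alone for 2 members and below for 0 (13.5% either way). The median difference of the 10 was 0.14 between neutrophils and B cells and 0.12 between neutrophils and culture alone, beside 0.13 and 0.11 for brighter genes, and 0.01 between B cells and culture alone. Neutrophil arrays lay above both other groups without overlap for 5 of the 9 brighter members, where 42.4% of brighter genes and 23.4% of all genes did so, and below both for Cdkn2a, where 6.41% and 19% did. Cdkn2a had a mean of 7.71, near the cut of 7.30 for brighter genes. Genes under the cut had median differences of -0.12 against B cells and -0.10 against culture alone. Neither share is for genes of its own level. With each array centred on its brighter genes, a setting chosen after seeing the data, the neutrophil minus B-cell difference became 0.13 for Cdkn2c, 0.15 for Cdkn1b, 0 for Ccnd3, -0.12 for Myc and -0.50 for Cdkn2a (adjusted p = 0.169 for the last), and 0 members passed.

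**Figure D2:**
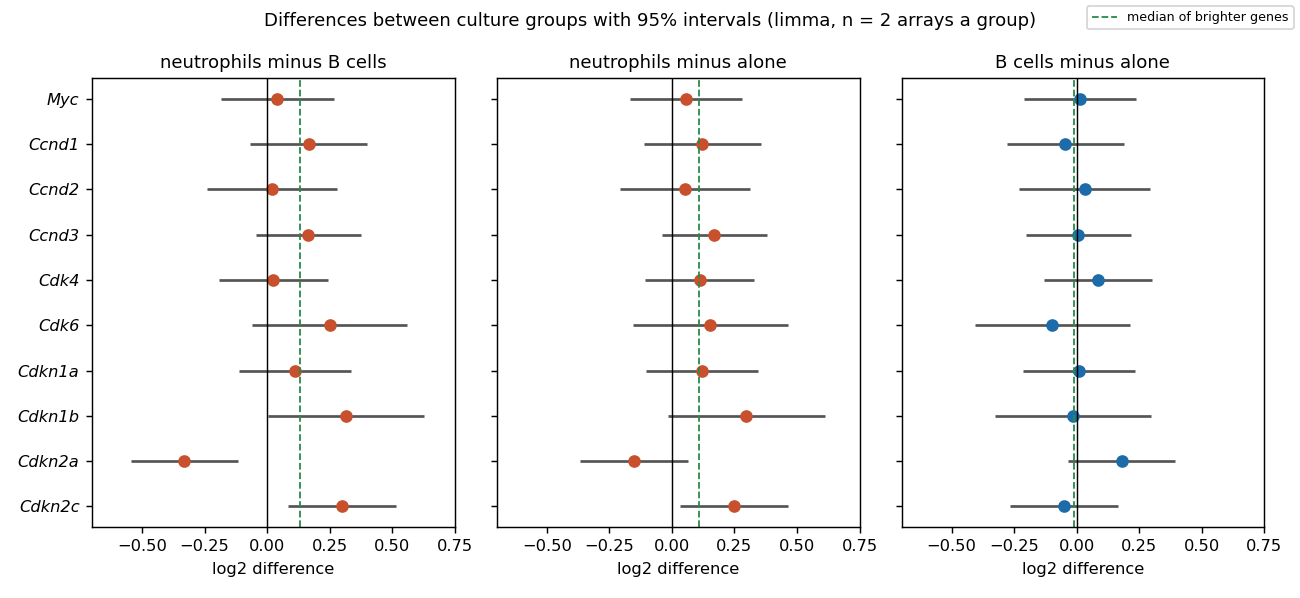
Log2 differences of the 10 genes between culture groups with 95% intervals from limma (n = 2 arrays a group); the dashed line is the median of the 11090 brighter genes. Most neutrophil differences sit around the dashed line at 0.13 and 0.11, and Cdkn2a lies on the other side of 0 at -0.33 and -0.15.

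**Figure D3:**
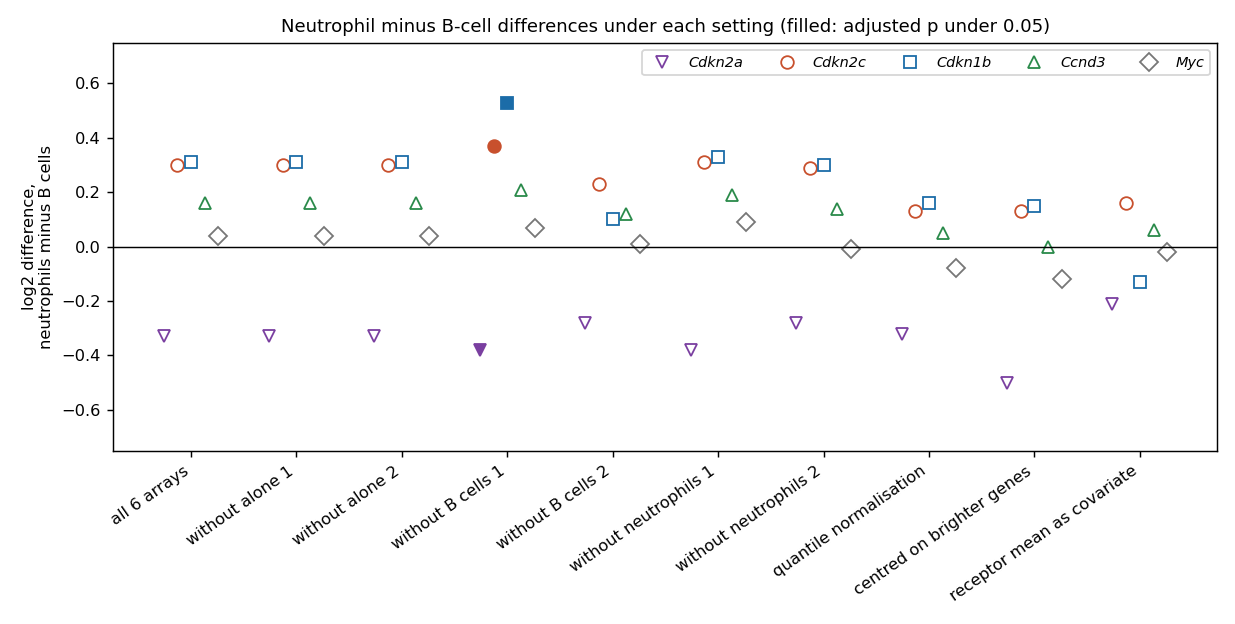
Log2 difference, neutrophils minus B cells, of 5 members with all 6 arrays and under 9 other settings; filled symbols have an adjusted p under 0.05. Filled symbols appear only without B-cell replicate 1, and Cdkn2a stays below 0 from -0.50 to -0.21 while Cdkn1b spans -0.13 to 0.53.

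These results leaned on B-cell replicate 1. Without it, 4 members passed between neutrophils and B cells, namely Cdk6 at 0.45, Cdkn1b at 0.53, Cdkn2c at 0.37 and Cdkn2a at -0.38 (adjusted p = 0.0278, 0.0189, 0.0309 and 0.0340), and 24.6% of all genes passed. Cdkn1b then also passed the F test, but the share of all genes that passed it in that fit was not counted. Without any other single array 0 members passed in any comparison. With B-cell replicate 1 left out, B-cell replicate 2 stands for its group alone and is assumed to vary like the others. Its brighter-gene median, 8.87, was the lowest of the 6 arrays. With replicate 2 left out instead, the differences were 0.05 for Cdk6, 0.10 for Cdkn1b and 0.23 for Cdkn2c, while that of Cdkn2a stayed below 0.

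The genes around the members were read from 6 lists with 117 measured genes besides them, and 0 passed in any of the 3 comparisons over all genes. In the MYC network, 14 genes of partners, antagonists and paralogues, the median difference between neutrophils and B cells was 0.13, and 0 passed. Max, the obligate partner of MYC, had means of 10.67 alone, 10.74 with B cells and 10.85 with neutrophils, differences of 0.11 ± 0.09 and 0.17 ± 0.09 from B cells and culture alone (adjusted p = 0.460 and 0.342). Mlx, the partner of the MondoA and ChREBP factors, stood 0.38 ± 0.11 above culture alone (adjusted p = 0.142) and 0.21 ± 0.11 above B cells (adjusted p = 0.294), and Fbxw7, which targets MYC for degradation, 0.20 ± 0.11 above B cells (adjusted p = 0.307). The paralogues Mycn and Mycl, added once their levels were known, were dim, with means of 6.58 and 6.02 alone, 6.75 and 5.91 in the B-cell co-culture and 6.74 and 6.04 in the neutrophil co-culture, below the array medians.

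The pocket protein and E2F list, 13 genes, had medians of 0.16 against B cells and 0.18 against culture alone. E2f1, an activator of S-phase genes, stood at 10.12 and 10.20 alone, at 10.30 and 9.96 in the B-cell co-culture and at 10.34 and 10.49 in the neutrophil co-culture. Its neutrophil arrays were the highest, and B-cell replicate 2 was the lowest array. The difference was 0.28 ± 0.13 against B cells (adjusted p = 0.257), and Tfdp2, a dimer partner of E2F, stood 0.27 ± 0.11 higher (adjusted p = 0.240). E2f8 and E2f2 stood 0.31 ± 0.09 and 0.28 ± 0.11 above culture alone (adjusted p = 0.155 and 0.257). Among 18 other G1/S cyclins, kinases and regulators the median was 0.12 in both neutrophil comparisons. Cdc25a, the phosphatase that activates CDK2, stood at 10.34 and 10.40 alone, at 10.71 and 10.41 in the B-cell co-culture and at 10.70 and 10.73 in the neutrophil co-culture, 0.34 ± 0.12 above culture alone (adjusted p = 0.197). Ccnh, the cyclin of the CDK-activating kinase, stood 0.29 ± 0.12 above B cells (adjusted p = 0.246), Mdm2, the ligase that degrades p53, 0.24 ± 0.13 above B cells (adjusted p = 0.303), and Skp2, the ligase subunit that degrades p27, 0.19 ± 0.11 above culture alone (adjusted p = 0.377).

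Target genes of MYC and E2F stood on the same side as most brighter genes. The 29 measured MYC targets all stood higher with neutrophils than with B cells, by a median of 0.16, where 80.1% of brighter genes stood higher. Against culture alone 25 of 29 stood higher, where 79.7% of brighter genes did. Their median there was 0.07, under the 0.11 of brighter genes. Tcof1 and Rrs1, genes of ribosome synthesis, stood 0.29 ± 0.11 and 0.27 ± 0.10 above B cells (adjusted p = 0.219 and 0.212), and Nme1, a nucleotide kinase gene, 0.17 ± 0.10 above culture alone (adjusted p = 0.402). The 24 measured E2F targets all stood higher in both neutrophil comparisons, with medians of 0.15 and 0.18. All 24 were brighter genes, of which 80.1% and 79.7% stood higher. Array means of the list were 10.56 to 10.84, so these shares are not for genes of its own level. Gins2, of the replicative helicase, stood at 9.70 and 9.78 alone, at 9.77 and 9.54 in the B-cell co-culture and at 9.96 and 10.02 in the neutrophil co-culture, a difference of 0.33 ± 0.11 from B cells (adjusted p = 0.186). Gins1, of the same helicase, stood 0.34 ± 0.15 above B cells (adjusted p = 0.245), and Cdc6 and Rfc3, which load helicase and clamp, 0.34 ± 0.11 and 0.27 ± 0.10 above culture alone (adjusted p = 0.173 and 0.212).

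Of the p53 targets, which share a regulator with Cdkn1a, 20 were measured, with medians of 0.14 against B cells and 0.09 against culture alone. Plk3, a kinase of stress responses, stood at 7.77 and 7.67 alone, at 7.79 and 7.46 in the B-cell co-culture and at 8.10 and 8.15 in the neutrophil co-culture. Both neutrophil arrays were above the other 4, and the difference was 0.50 ± 0.12 against B cells and 0.40 ± 0.12 against culture alone (adjusted p = 0.146 and 0.160). Ddit4, an inhibitor of mTORC1, stood 0.37 ± 0.16 above B cells (adjusted p = 0.243), and Bbc3, the PUMA gene, 0.25 ± 0.11 above culture alone (adjusted p = 0.278). At an unadjusted p under 0.05, 4 of the 20 were higher and 1 lower than with B cells, against 20.1% of all genes in either direction. Without B-cell replicate 1, 32 listed genes passed between neutrophils and B cells, 30 of them higher, beside 24.6% of all genes. Against culture alone, Cdc25a, Mlx and Plk3 passed in limma's fit of only the 4 arrays compared (differences of 0.34, 0.38 and 0.40, adjusted p = 0.0474, 0.0379 and 0.0382). These were 3 of the 117 listed genes, beside 6.03% of all genes in that fit. Leaving out either B-cell array gives the same test for this comparison, so it adds no further result.

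**Figure D4:**
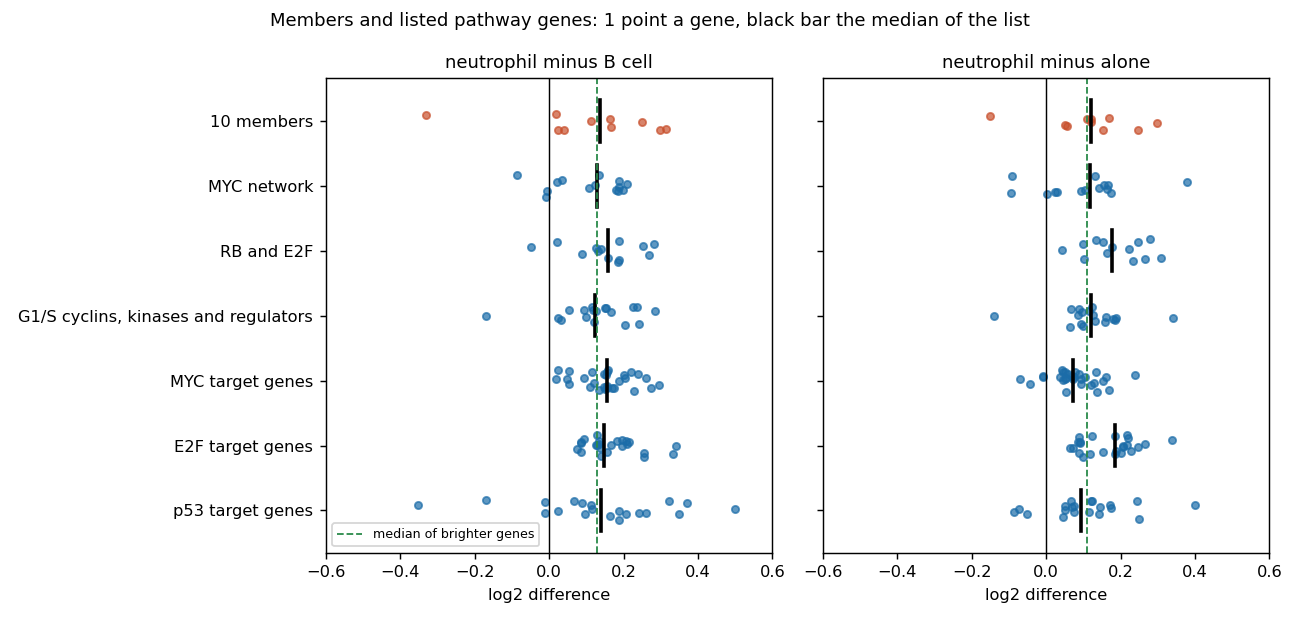
Log2 differences of the 10 members and of the genes on 6 pathway lists, 1 point a gene, for neutrophils minus B cells (left) and neutrophils minus culture alone (right); black bars are list medians and the dashed line the median of brighter genes. List medians run from 0.12 to 0.16 on the left, beside a dashed line at 0.13. On the right they run from 0.07 (MYC targets) to 0.18 (RB and E2F, and E2F targets), beside a dashed line at 0.11. Cdkn2a is the member below 0.

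The pattern over the 6 arrays was compared with 10328 named brighter genes by Pearson's correlation, as a description, since the points share normalisation and culture groups. Myc had few like it, with 49 genes above 0.9, led by Senp8 (0.982), Kpnb1 (0.978) and Nr2c2 (0.966). Cdkn2a had 90, led by Snph (0.981), Snora47 (0.979) and Clec18a (0.975). Cdk4 had 412, led by Hibadh (0.998), Cndp2 (0.993) and Kif2c (0.992).

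The other brighter members followed patterns that many genes shared. Cdkn1b had 2786 genes above 0.9, led by Hsf2, Lrrc61 and Fnip1 (0.999, 0.999 and 0.998), and Cdk6 had 1890, led by Zfp84, Nomo1 and Icmt (0.998, 0.998 and 0.996). Cdkn2c had 1775, led by Ipo9, Tbk1 and Brpf3 (0.998, 0.997 and 0.997), and Ccnd3 had 1606, led by Rdh11, Wdr13 and Pigu (0.999, 0.999 and 0.999). Ccnd1 had 796, led by Tspan5, Mocs1 and Ankmy2 (0.994, 0.992 and 0.989), and Cdkn1a had 676, led by Ppox, Trub1 and Lmf1 (0.994, 0.993 and 0.993). Among the members, Ccnd3 and Cdkn2c were the most alike, at 0.97, and Cdkn2a ran against Cdkn2c, at -0.90.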

How the data were processed

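The submitters' processing notes name RMA as the method by which the authors obtained the deposited values, which are log2 signals, 1 per probe set and array. Version, array library and annotation build are not given in the sources used here. Values ran from 3.04 to 14.03. RMA assumes similar distributions between arrays, compresses signals near background, and hides a change shared by most genes. The number of arrays limits the precision.

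The platform annotation gave 23521 of 41345 probe sets a single gene symbol, and these were used. It gave 1814 several symbols, and 16010 are unnamed here. The brightest of a gene's probe sets was kept, giving 22180 genes. Each member had a single probe set of its own.

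Group means were fitted with limma 3.58.1 (R 4.3.3) on all 6 arrays, with eBayes, two-sided tests and Benjamini-Hochberg adjustment over all genes. Residual degrees of freedom were 3, and eBayes added 5.55. A gene passed at an adjusted p under 0.05. Differences are the first group minus the second. The fit was tested on simulated data.

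Members, lists and naming rules were chosen with earlier results of these data known. The rule named all members, for each pathway list the genes that passed or else the 2 with the largest difference in each neutrophil comparison, and for each brighter member the 3 genes with the highest correlation. The main fit did not pair arrays by replicate number. Deviations of replicate 1 from the group means correlated between groups at -0.151 to 0.065, which with 2 arrays a group cannot exclude pairing or a shared batch. The alternatives covered filters, eBayes settings, normalisation, centring, probe set rules, fits of 4 arrays, a replicate block, each array left out, a covariate and the threshold. Figures used matplotlib 3.10.9 (Python 3.11.15).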

Additional observations from a re-analysis of the deposited data

How the results depend on the processing

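The count of members that passed stayed at 0 in all comparisons under every setting run except one array left out: it ranged from 0 to 4 between neutrophils and B cells and from 0 to 1 in the F test, the highest value without B-cell replicate 1, and stayed at 0 in the other comparisons. Listed pathway genes ranged from 0 to 32 between neutrophils and B cells and from 0 to 3 between neutrophils and culture alone when one array was left out, and were 3 in the latter with only the 4 arrays compared. The replicate block changed no call, with 0 members and 0 pathway genes. The share of all genes that passed ranged from 0.00451% to 24.6% (neutrophils and B cells) and from 0.0225% to 6.03% (neutrophils and culture alone) with one array left out. In the same order it was 0.00451% and 0.0992% with quantile normalisation, 0.280% and 2.50% with arrays centred on medians, 0.821% and 0.812% among brighter genes, 0.00451% and 6.03% with only the 4 arrays compared, and 0% and 0% with a covariate, the mean over 1394 genes for olfactory or vomeronasal receptors. It was 0.149% between neutrophils and B cells with trend and robust eBayes, and 0.135% and 3.38% at a threshold of 0.1.

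The sign of a member difference changed in 54 of 477 recomputed values, among them those of Cdkn1b and Cdk6, which were 0.31 and 0.25 against B cells and 0.30 and 0.15 against culture alone, and the cause was not tested. The receptor covariate was lowest on the neutrophil arrays, so adjusting for it also removes part of the group difference. Between neutrophils and B cells, the differences with the receptor covariate were -0.02 for Myc, -0.01 for Ccnd1, -0.12 for Cdk4, -0.19 for Cdk6, -0.04 for Cdkn1a and -0.13 for Cdkn1b. With quantile normalisation they were -0.08 for Myc, -0.05 for Cdk4 and -0.01 for Cdkn1a. Centred on brighter genes they were -0.12 for Myc, -0.15 for Ccnd2, 0 for Ccnd3, -0.14 for Cdk4 and -0.05 for Cdkn1a. Between neutrophils and culture alone, the covariate gave -0.03 for Myc, -0.10 for Ccnd1, -0.08 for Cdk4, -0.43 for Cdk6, -0.07 for Cdkn1a, -0.28 for Cdkn1b and 0 for Cdkn2a, quantile normalisation -0.05 for Myc, and centring on brighter genes -0.08 for Myc, -0.01 for Ccnd1, -0.08 for Ccnd2, -0.02 for Cdk4 and -0.01 for Cdkn1a. Between B cells and culture alone, the covariate gave -0.01 for Myc, -0.03 for Ccnd3 and -0.04 for Cdkn1a, centring on medians -0.01, -0.02 and -0.02, quantile normalisation 0.01 for Cdkn1b and centring on brighter genes 0.02 for Cdkn1b.

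With one array left out, Myc ranged from -0.01 to 0.09 between neutrophils and B cells, from -0.01 to 0.13 between neutrophils and culture alone and from -0.06 to 0.08 between B cells and culture alone. Ccnd2 ranged from -0.12 to 0.16, -0.09 to 0.19 and -0.01 to 0.07 in the same order, and Cdk4 from -0.04 to 0.09 in the first. Between B cells and culture alone, Ccnd1 ranged from -0.10 to 0.01, Ccnd3 from -0.04 to 0.05, Cdk6 from -0.30 to 0.11, Cdkn1a from -0.05 to 0.07, Cdkn1b from -0.23 to 0.20 and Cdkn2c from -0.12 to 0.02. Between neutrophils and B cells, Cdkn2a ranged from -0.50 to -0.21 and Cdkn2c from 0.13 to 0.37 over all settings.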
